A study of Mus musculus with 6 samples.

Results

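The transcripts of 10 genes that build or control the mTOR kinase complexes were followed in mouse blood stem cells after a small molecule, among 41128 genes in the table. They are Rictor and Mapkap1, whose proteins are found only in TOR complex 2 (TORC2); Rptor and Akt1s1, found only in TOR complex 1 (TORC1); Mtor, Mlst8 and Deptor, shared by both; and Tsc1, Tsc2 and Rheb, which act upstream of TORC1. The rows were found by their Ensembl IDs, and all 10 were present and passed the minimum of 1 RPM on average (RPM, reads scaled to a common total per library, a unit inferred from the values). Rictor was picked because its mean had already been seen to be lower after treatment, and the other members because their proteins work with it. Differences between the treatments are therefore given as a description, with no test of single members.

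The treated mice received YH250, named by the submitters as a p300/catenin antagonist, at 2 mg/kg under the skin, and the control mice received DMSO, each group with 3 libraries numbered 1 to 3. All animals were C57BL. No genetic change is named in the labels, and age and sex are not given in the sources used here. Marrow was collected 16 h after dosing and cells were sorted as lineage-negative, Sca1+, c-Kit+, CD41-, CD48- and CD150+, the surface profile of long-term repopulating stem cells. Polyadenylated RNA was amplified as cDNA with a low-input kit before sequencing. The labels do not say whether libraries came from separate animals or from pools, so the spread between libraries may be partly technical.

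mTOR is a serine/threonine kinase that works in a pair of complexes with different partners. TORC1, built around Raptor (the product of Rptor), promotes protein and lipid synthesis when growth factors and amino acids are present, and it is held back by the TSC1-TSC2 complex, which switches off the GTPase Rheb. TORC2, built around Rictor, phosphorylates kinases of the AGC family, among them Akt. In mouse blood stem cells, loss of Tsc1 is known to raise mTOR activity and to drive the cells out of quiescence.

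The promoters of the genes for the scaffolds of TORC2 and TORC1 are shown because Rictor and Rptor lay apart in opposite directions; they were chosen for printing after those values were known. Each window runs from 250 bases before to 50 bases after a RefSeq start site (GRCm38.p6, plus strand, 5′ to 3′). The windows of all members were searched on both strands for 8 motifs, also taken up with the results known, and capitals mark every match.
Rictor, chr15:6708131-6708430: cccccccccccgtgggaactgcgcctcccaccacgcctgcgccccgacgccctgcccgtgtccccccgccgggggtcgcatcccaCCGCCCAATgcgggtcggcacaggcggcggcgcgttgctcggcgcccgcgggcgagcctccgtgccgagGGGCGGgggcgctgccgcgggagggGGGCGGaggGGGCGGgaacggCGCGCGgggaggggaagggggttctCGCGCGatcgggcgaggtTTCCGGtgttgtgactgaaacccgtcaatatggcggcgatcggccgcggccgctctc
Rptor, chr11:119602655-119602954: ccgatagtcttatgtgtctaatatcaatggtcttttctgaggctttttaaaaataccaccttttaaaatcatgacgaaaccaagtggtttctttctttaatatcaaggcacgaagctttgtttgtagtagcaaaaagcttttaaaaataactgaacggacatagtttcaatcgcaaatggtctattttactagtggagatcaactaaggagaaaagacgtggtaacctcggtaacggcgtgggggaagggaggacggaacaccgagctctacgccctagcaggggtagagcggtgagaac
The Rictor window held 47 CpG pairs, as did that of Rheb, and 98.8% of the 32851 windows in the RefSeq table held as many or fewer. It had 4 matches to GGGCGG (a GC box), 2 to CGCGCG, 1 to CCAAT and 1 to TTCCGG (an ETS core), where 1 GC box and CCAAT shared 2 bases. The Rptor window held 13 CpG pairs, against a median of 7 over all windows, and no match to any of the 8 motifs, like the windows of Tsc1 and Mlst8. Among the 10 windows found for 9 members, GGGCGG was in 6, TTCCGG in 6, CGCGCG in 3 and CCAAT in 2. Mapkap1 had 2 windows, which overlap, so a match there can count for both. Of all windows in the table, GGGCGG was in 35.7%, CGCGCG in 11.3%, CCAAT in 37.4% and TTCCGG in 14.9%.

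The other 4 motifs were in neither printed window. CTTTGA, the core bound by the TCF/LEF partners of catenin, was in none of the 10 windows and in 16% of all windows, and TATAAA was likewise in none of the 10 and in 13.6% of all. CACGTG (an E-box) was in the Rheb window and in 7.15% of all windows. GTAAACA (a forkhead motif) was in both windows of Mapkap1, which overlap, and in 3.65% of all windows. A match describes the letters of a window only. Deptor had no entry.

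Rictor, the scaffold of TORC2 (ENSMUSG00000050310, GRCm38 chromosome 15, 6708379 to 6800401), stood at 29.4, 22.1 and 34.9 RPM in YH250 1, 2 and 3, against 52.7, 50.4 and 53.7 RPM in DMSO 1, 2 and 3. Every YH250 library lay below every DMSO library, and the DMSO values lay close together. The mean was 28.8 ± 6.42 RPM in YH250 and 52.3 ± 1.72 RPM in DMSO (SD, n = 3 each, as for all means below), which is 55.2% of the DMSO mean. The difference on the log2(RPM + 1) scale was -0.86 ± 0.25 (SE), and -0.82, -1.15 and -0.61 at numbers 1, 2 and 3. By size of that difference 384 of 13597 tested genes lay lower. By inference about 554 to 1371 reads stood behind each of these values, for which the counting error of reads alone reaches 4.25% of a value. Reads of amplified cDNA are not independent molecules, so the technical error may be larger. In bulk RNA of sorted cells, fewer cells that express a gene and less RNA per cell cannot be told apart.

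Mapkap1, which encodes SIN1, the other TORC2-specific subunit and the one that positions its substrates (ENSMUSG00000038696, chromosome 2, 34406771 to 34624950), had 38.6, 29.4 and 54.1 RPM in YH250 and 55.8, 33.5 and 41.9 RPM in DMSO. The groups overlapped widely, with a log2 difference of -0.11 ± 0.31 (SE). Within numbers it was lower in YH250 at 1 and 2 and higher at 3. The ratio of Rictor to Mapkap1 RPM within a library was 0.762, 0.753 and 0.645 in YH250, against 0.943, 1.51 and 1.28 in DMSO. Rictor alone already separated the groups, and the pair was taken after the values were seen.

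Prr5 and Prr5l, which encode a pair of related proteins that bind TORC2, were not among the 10 but complete the complex. Prr5 averaged 9.35 ± 8.26 RPM in YH250 and 10.99 ± 4.74 RPM in DMSO. Prr5l averaged 3.98 ± 1.29 RPM in YH250 and 4.20 ± 2.88 RPM in DMSO. For both, the groups overlapped and the spread within a group exceeded the difference.

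Rptor, the scaffold of TORC1 that recruits its substrates (ENSMUSG00000025583, chromosome 11, 119602905 to 119899576), had 15.4, 23.3 and 18.9 RPM in YH250, against 12.7, 7.29 and 13.3 RPM in DMSO. Here every YH250 library lay above every DMSO library, although YH250 1 and DMSO 3 were close. The mean was 19.2 ± 3.95 RPM in YH250 and 11.1 ± 3.31 RPM in DMSO, a log2 difference of 0.77 ± 0.36 (SE). The difference was largest at number 2 (1.55) and smaller at numbers 1 and 3 (0.27 and 0.48).

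Akt1s1, which encodes PRAS40, an inhibitor and substrate of TORC1 (ENSMUSG00000011096, chromosome 7, 44848991 to 44855421), had 28.0, 32.2 and 16.1 RPM in YH250 and 44.0, 36.1 and 9.33 RPM in DMSO. The libraries numbered 3 were the lowest of each group. The log2 difference was -0.02 ± 0.54 (SE), and its sign was not shared by the numbers.

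**Figure D1:**
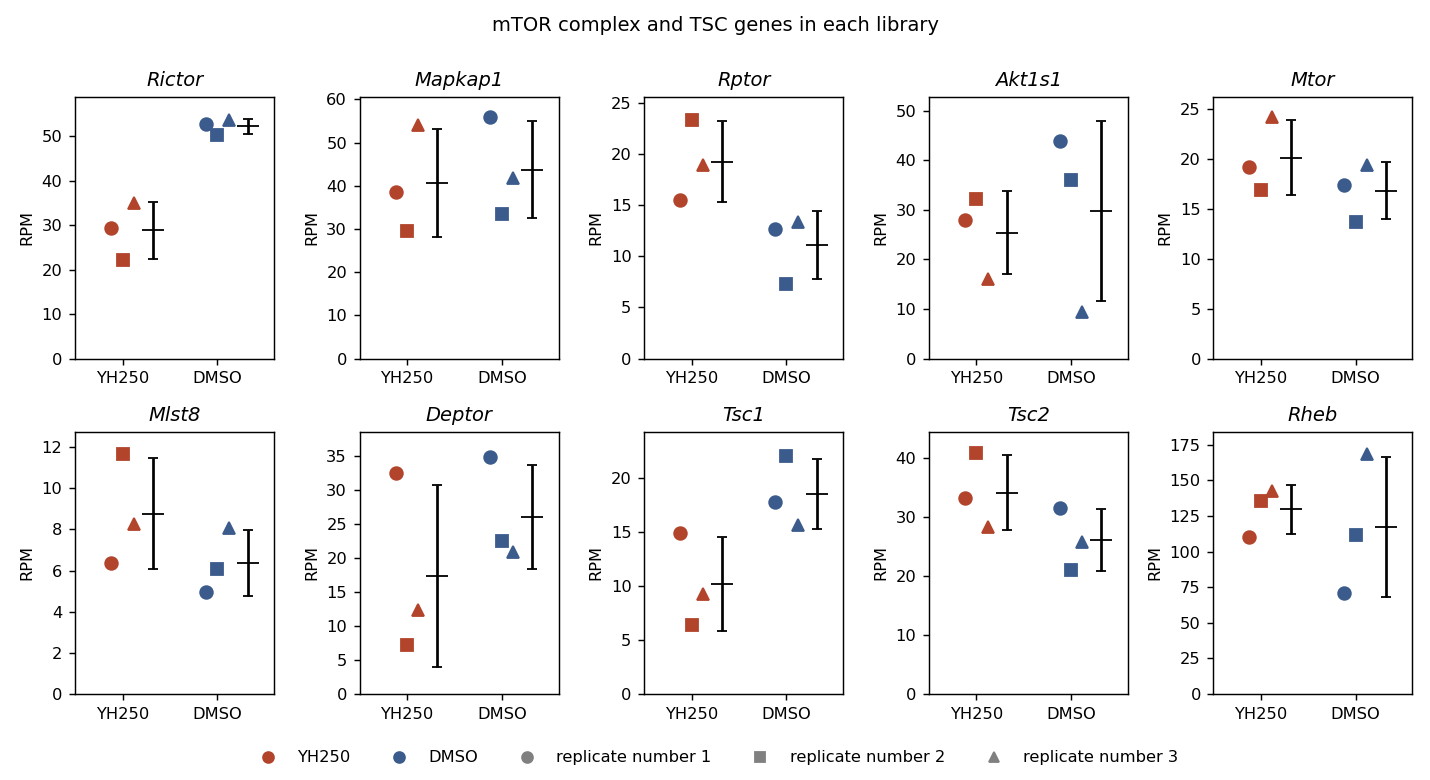
RPM (y axis, from 0) of the 10 members in each YH250 and DMSO library, with symbols for replicate numbers 1 to 3 and bars for mean ± SD of 3 libraries. Rictor and Tsc1 lay lower and Rptor higher in every YH250 library than in every DMSO library; the other 7 genes overlapped.

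Mtor, the kinase itself (ENSMUSG00000028991, chromosome 4, 148448611 to 148557683), had 19.2, 16.9 and 24.2 RPM in YH250 and 17.4, 13.7 and 19.4 RPM in DMSO. It was higher in YH250 at each number by 0.13 to 0.31 on the log2 scale, while the groups overlapped (log2 difference 0.24 ± 0.30, SE). Mlst8, a shared subunit that binds the kinase domain (ENSMUSG00000024142, chromosome 17, 24473551 to 24479078), was the member with the fewest reads. It had 6.37, 11.7 and 8.26 RPM in YH250 and 4.95, 6.07 and 8.08 RPM in DMSO, with overlapping groups and a log2 difference of 0.39 ± 0.41 (SE).

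Deptor, an inhibitor that binds mTOR in both complexes (ENSMUSG00000022419, chromosome 15, 55112317 to 55259271), had 32.5, 7.12 and 12.4 RPM in YH250 and 34.7, 22.4 and 20.9 RPM in DMSO. YH250 1 stood far above the other 2 treated libraries and within the DMSO range. The log2 difference was -0.78 ± 0.50 (SE), and moved between -0.31 without YH250 2 and -1.34 without YH250 1.

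Tsc1, which encodes hamartin, the stabilizing partner of the TSC complex (ENSMUSG00000026812, chromosome 2, 28641228 to 28691167), had 14.9, 6.36 and 9.22 RPM in YH250, against 17.7, 22.0 and 15.7 RPM in DMSO. The groups did not overlap, but YH250 1 and DMSO 3 were close. The mean was 10.2 ± 4.36 RPM in YH250 and 18.5 ± 3.25 RPM in DMSO, with a log2 difference of -0.86 ± 0.38 (SE).

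Tsc2, which encodes tuberin, the subunit that acts on Rheb (ENSMUSG00000002496, chromosome 17, 24595816 to 24632630), had 33.2, 41.0 and 28.3 RPM in YH250 and 31.6, 21.1 and 25.8 RPM in DMSO. It was higher in YH250 at each number, by 0.07, 0.93 and 0.13 on the log2 scale, and the groups overlapped (0.38 ± 0.28, SE). The ratio of Tsc1 to Tsc2 RPM was 0.449, 0.155 and 0.325 in YH250, against 0.561, 1.05 and 0.607 in DMSO. That pair was taken after the values were seen, and Tsc1 alone already separated the groups.

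Rheb, the GTPase that activates TORC1 (ENSMUSG00000028945, chromosome 5, 24802823 to 24842624), had 110.3, 135.5 and 142.9 RPM in YH250 and 70.7, 111.7 and 168.5 RPM in DMSO. The DMSO libraries enclosed all YH250 values (log2 difference 0.23 ± 0.32, SE). Its relative Rhebl1 averaged 14.8 ± 6.68 RPM in YH250 and 10.8 ± 0.790 RPM in DMSO, with YH250 2 at 22.5 RPM and the other 5 libraries between 10.2 and 11.7 RPM.

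**Figure D2:**
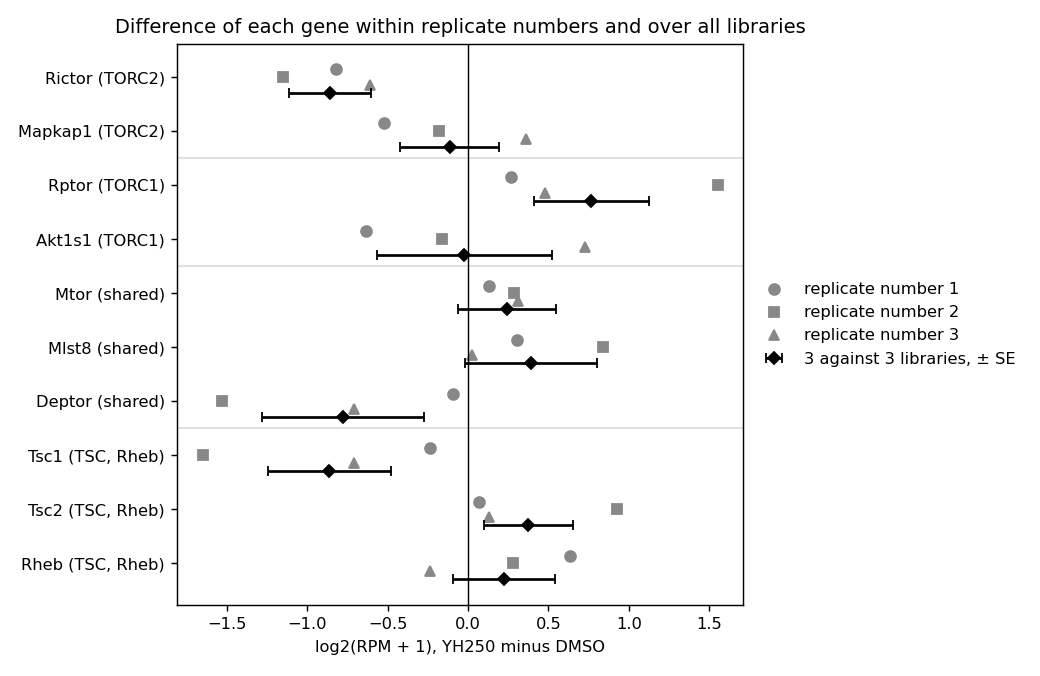
Difference in log2(RPM + 1), YH250 minus DMSO (x axis), of each member within replicate numbers 1 to 3 (grey) and over 3 against 3 libraries with its SE (black). Rictor, Deptor and Tsc1 lay below 0 and Rptor, Mtor, Mlst8 and Tsc2 above 0 at all 3 numbers.

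Set out by role, the 2 TORC2-specific members had a median log2 difference of -0.49, the 2 TORC1-specific members 0.37, the 3 shared members 0.24 and the TSC1-TSC2-Rheb set 0.23. Each median of 2 lies midway between a member whose groups did not overlap and a partner whose groups overlapped. These were Rictor (-0.86) with Mapkap1 (-0.11), and Rptor (0.77) with Akt1s1 (-0.02). Over the 10 members the median was 0.10, with 5 higher and 5 lower in mean, beside 0.02 over all tested genes, of which 7034 were higher and 6563 lower. Groups did not overlap for 2 members lower in YH250 (Rictor and Tsc1), where 3.68% of all tested genes met that condition, and for 1 member higher in YH250 (Rptor), where 3.79% did. Lower at all 3 numbers were 3 members, beside 15.0% of tested genes, and higher at all 3 were 4, beside 16.1%. Since Rictor was chosen on these values, nothing is read from the medians by role or from the counts.

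Across the transcriptome 0 of 13597 genes, that is 0.0%, passed in YH250 against DMSO (limma, Benjamini-Hochberg adjusted p under 0.05). Without adjustment, 231 genes (1.7%) had a limma p under 0.05. With the replicate number as a block it again gave 0 genes after adjustment; unadjusted, it gave 1012 genes, or 7.44%. The SE of the Rictor difference was 0.21 with the block. These counts do not show that the members were equal in both groups.

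Transcripts of the complexes were compared as ratios within libraries, where differences in depth cancel. These pairs were taken after the values had been seen. Rictor alone and Rptor alone already separated the groups, in opposite directions, so Rictor over Rptor had to separate them as well. The ratios to Mtor reuse the same values. A ratio of RNA does not give the amount or activity of the complexes. Rictor over Rptor was 1.90, 0.949 and 1.84 in YH250, against 4.15, 6.91 and 4.04 in DMSO. The mean ratio was 1.57 ± 0.535 in YH250 and 5.03 ± 1.63 in DMSO. Rictor over Mtor was 1.53, 1.31 and 1.44 in YH250, against 3.02, 3.68 and 2.78 in DMSO, so the libraries of each group lay close together. Rptor over Mtor was 0.804, 1.38 and 0.782 in YH250, against 0.728, 0.533 and 0.688 in DMSO.

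**Figure D3:**
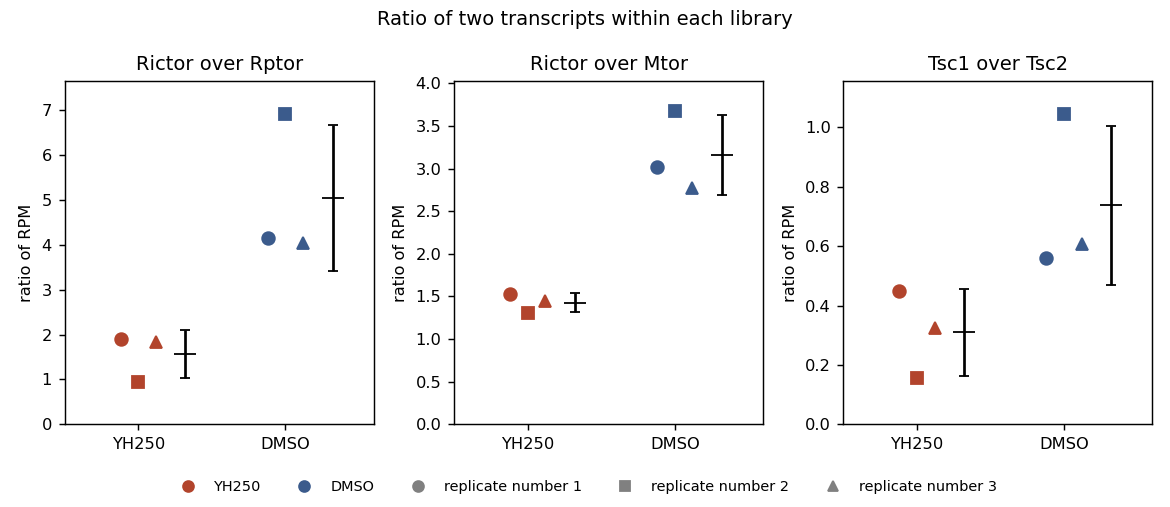
Ratio of the RPM of Rictor to Rptor, Rictor to Mtor and Tsc1 to Tsc2 (y axes, from 0) within each YH250 and DMSO library, with bars for mean ± SD. Rictor over Rptor lay between 0.949 and 1.90 in YH250 and between 4.04 and 6.91 in DMSO. Rictor, Rptor and Tsc1 each separated the groups alone.

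Levels were compared between genes per kb of merged exons. Rheb was the most abundant of the 10, at 16.8 ± 2.21 RPM per kb in YH250 and 15.1 ± 6.36 in DMSO. Mapkap1 followed with 10.03 ± 3.08 in YH250 and 10.8 ± 2.78 in DMSO, and Akt1s1 with 8.28 ± 2.72 in YH250 and 9.70 ± 5.91 in DMSO, all in RPM per kb. The other 7 averaged 1.13 to 3.14 RPM per kb over the 6 libraries. In that group Tsc2 came first and Rptor last, and Mtor itself had 1.99 ± 0.370 in YH250 and 1.66 ± 0.285 in DMSO. The ranges over 6 libraries overlapped for every neighbouring pair in the order, although Akt1s1 lay above Tsc2 in all 6.

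Rictor had 1.70 ± 0.379 RPM per kb in YH250 and 3.09 ± 0.102 in DMSO. It lay above Mtor per kb in the 3 DMSO libraries and below it in the 3 YH250 libraries. This crossing depends on the length used: per kb of the longest coding transcript Rictor averaged 3.10 in YH250 and 5.61 in DMSO, and Mtor 2.35 in YH250 and 1.96 in DMSO. With that length Rheb was still first, at 69.1 over all libraries, but Akt1s1 (15.2) came before Mapkap1 (13.6), Rptor was 7th and Tsc1 was last.

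**Figure D4:**
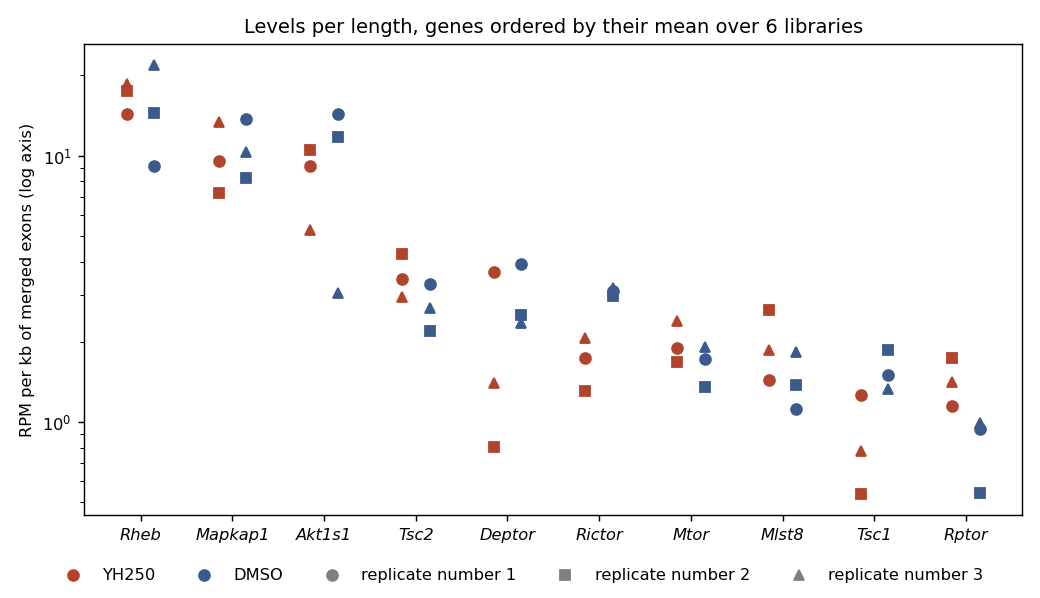
RPM per kb of merged exons (log y axis) of the 10 members in each YH250 and DMSO library, in order of their mean over 6 libraries. Rheb lay between 9.16 and 21.8, and neighbouring genes overlapped.

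A second comparison, between replicate numbers with treatment as a term, played no part in choosing the members. Akt1s1 was lower in the libraries numbered 3 (16.1 RPM in YH250 and 9.33 RPM in DMSO) than in those numbered 1 (28.0 RPM in YH250 and 44.0 RPM in DMSO). The log2 difference was -1.44 ± 0.36 (SE), in the same direction in both treatments (adjusted p = 0.0389, limma, 2 libraries per number). It was the only 1 of 10 members to pass, where 8.56% of all tested genes did. The call was lost without DMSO 1 (-0.98, adjusted p = 0.474), without DMSO 3 (-0.88, adjusted p = 0.4996) and when each library was corrected for length and GC (-0.80, adjusted p = 0.215, limma). Over all alternatives the adjusted p of limma ran from 0.00256 to 0.4996.

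Rheb was higher in number 3 than in number 1 by 0.81 ± 0.24 (SE) on the log2 scale. Its adjusted p of 0.068 (limma) does not pass. With all 6 libraries it passed only at a minimum mean of 5 RPM (adjusted p = 0.0388, limma). Fits that left out a library gave 0.46 (without DMSO 3) to 1.15 (without YH250 3). Deptor was lower in number 3 by -1.02 ± 0.39 and in number 2 by -1.33 ± 0.39, both relative to number 1 (SE; adjusted p = 0.145 and 0.211, limma). Between numbers 3 and 2, 0 members passed in either direction, where 6.31% of all genes did (3.67% higher and 2.64% lower). Akt1s1 missed narrowly (-1.40, adjusted p = 0.0513, limma). With all 6 libraries it passed with a pseudocount of 5 and at a minimum mean of 5 RPM, and in no other alternative. Between numbers 2 and 1, 0 members passed, where 0.199% of all genes did (0.177% higher and 0.0221% lower). Rictor differed by 0.14 ± 0.26 between numbers 3 and 1, by 0.36 ± 0.26 between 3 and 2 and by -0.23 ± 0.26 between 2 and 1 (SE; adjusted p = 0.804, 0.42 and 0.734, limma).

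Markers of other cells differed between the libraries numbered 3 and 1. The summed level of 7 B cell genes was 574 to 779 RPM in number 3 and 59.9 to 163 RPM in number 1, with all 7 higher in number 3 and Pax5 at 0 in some libraries. Of 8 T and NK cell genes all were higher in number 3, with sums of 393 to 447 RPM there and 54.2 to 117 RPM in number 1. Granulocyte and monocyte genes, 8 of 8 higher, summed to 790 to 824 RPM in number 3 and 188 to 271 RPM in number 1. Erythroid and megakaryocyte genes went the other way, with 2 of 8 higher in number 3 and sums of 44.6 to 168 RPM there and 188 to 258 RPM in number 1. Endothelial and stromal genes also had 2 of 8 higher in number 3, with sums of 98.9 to 99.0 RPM there and 113 to 115 RPM in number 1. In number 2 the sums were 264 to 282 RPM for B cell genes and 93.5 to 173 RPM for T and NK cell genes. Granulocyte and monocyte genes summed there to 293 to 426 RPM, erythroid and megakaryocyte genes to 235 to 376 RPM, and endothelial and stromal genes to 125 to 418 RPM.

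The genes of the sort markers did not move together. Slamf1, which encodes the required CD150, had 31.5, 3.92 and 1.54 RPM in YH250 1, 2 and 3 and 35.5, 0.515 and 4.69 RPM in DMSO 1, 2 and 3, so it was low in numbers 2 and 3 alike. Ly6a, which encodes the required Sca1, was lowest in number 1 and highest in number 3, with 121.7, 207.8 and 319 RPM in YH250 and 80.9, 155 and 241 RPM in DMSO. The required Kit had 217.7, 160.1 and 129.6 RPM in YH250 and 318, 265 and 213 RPM in DMSO. At each number Kit was lower and Ly6a higher in YH250 than in DMSO, while the groups overlapped. Of all tested genes, 15.0% were lower and 16.1% higher at all 3 numbers. Of the excluded markers, Cd48 was highest in number 3, with 13.1, 66.9 and 252 RPM in YH250 and 10.2, 31.5 and 258 RPM in DMSO. Itga2b, which encodes the excluded CD41, was lowest there, with 37.4, 26.3 and 7.13 RPM in YH250 and 43.7, 15.3 and 5.65 RPM in DMSO. The part of any of these genes in the Akt1s1 difference was not tested.

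Between treatments the same lists overlapped, with B cell sums of 163 to 779 RPM in YH250 and 59.9 to 574 RPM in DMSO (6 of 7 genes higher in mean), and T and NK cell sums of 117 to 393 RPM in YH250 and 54.2 to 447 RPM in DMSO (6 of 8). Granulocyte and monocyte sums were 271 to 824 RPM in YH250 and 188 to 790 RPM in DMSO (5 of 8). Erythroid and megakaryocyte genes summed to 44.6 to 258 RPM in YH250 and 168 to 376 RPM in DMSO (5 of 8), with Hba-a1 among those at 0 in some libraries. Of 8 endothelial and stromal genes 7 were higher in mean in YH250. YH250 2 stood apart in these genes, which summed to 418 RPM there and to 98.9 to 125 RPM in the other 5 libraries. It also had the lowest Rictor, Mapkap1, Tsc1 and Deptor and the highest Rptor, Mlst8 and Tsc2 of all libraries. Without it the log2 differences were -0.69 for Rictor, 0.09 for Mapkap1, -0.60 for Tsc1, -0.31 for Deptor, 0.62 for Rptor, 0.19 for Mlst8 and 0.24 for Tsc2. The part of other cells in the treatment differences was not tested.

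Transcript length and base composition differ among the members. The longest coding transcript of Rictor has 9312 bases with 42.5% G and C, the longest and the lowest in GC of the 10, that of Rptor 6594 bases with 56.5% and that of Akt1s1 1812 bases with 61.8%. The GC of the others is 44.3% for Deptor, 47.1% for Rheb, 48.6% for Mapkap1 and 51.7% for Tsc1. It is 54.2% for Mtor and 54.7% for both Mlst8 and Tsc2. After a correction of each library for the trend on both properties, the log2 differences were -0.67 for Rictor, -0.72 for Tsc1, -0.60 for Deptor, 0.90 for Rptor and 0.50 for Tsc2. Whether counting used the strand is not given in the labels. On the opposite strand Tsc2 shares 693 exonic bases with Pkd1 (13.6 RPM on average), Mlst8 shares 997 with Bricd5 (0.0925 RPM) and Akt1s1 shares 89 with Tbc1d17 (32.2 RPM), so reads there are uncertain; exons of Rictor overlap no other annotated gene.

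The pathway around the complexes was covered by 6 lists with 93 genes, of which 90 were tested. None of the 90 passed between treatments (0.0% of all genes did). Of these genes 40 were higher and 50 lower in mean in YH250, with a median log2 difference of -0.04, beside 0.02 for all tested genes. The groups did not overlap for 5 genes lower in YH250, 5.56% of the 90, and for 2 genes higher, 2.22%; the shares of all genes were 3.68% and 3.79%.

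Of 13 tested genes in the list of TORC2 substrates, 9 were lower in mean and 4 higher, with a median log2 difference of -0.15. Akt1, the best known of them and by rule named for its RPM, averaged 84.7 ± 21.1 RPM in YH250 and 85.7 ± 34.1 RPM in DMSO, which does not exceed the spread. The kinase gene Sgk3 had 73.5 ± 25.7 RPM in YH250 and 81.1 ± 28.1 RPM in DMSO. Prkca, which encodes protein kinase C alpha, had the most negative difference, with 12.7, 4.64 and 16.2 RPM in YH250 and 19.1, 15.8 and 27.0 RPM in DMSO (-0.94 ± 0.46, SE); the groups overlapped slightly. The most positive was the transcription factor gene Foxo4, at 2.46 ± 0.900 RPM in YH250 and 2.27 ± 1.27 RPM in DMSO. Foxo1, Foxo3 and Foxo4 are in the list as factors downstream of Akt, not as direct substrates of TORC2.

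Named after their values were seen, because their groups did not overlap, were Sgk1, a kinase whose activity reads out TORC2, and Prkcd, which encodes protein kinase C delta. Sgk1 had 10.7, 7.84 and 12.9 RPM in YH250, against 14.1, 15.8 and 16.0 RPM in DMSO. Prkcd had 45.6, 46.4 and 61.2 RPM in YH250, against 68.2, 67.4 and 65.9 RPM in DMSO.

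Among 18 tested TORC1 substrates and translation genes, 8 were higher and 10 lower in mean (median -0.02). Rps6, the ribosomal protein phosphorylated downstream of TORC1, averaged 3921 ± 62.1 RPM in YH250 and 3592 ± 825 RPM in DMSO. The elongation factor gene Eef2 averaged 623 ± 53.4 RPM in YH250 and 521 ± 136 RPM in DMSO. Its kinase gene Eef2k, whose groups did not overlap, had 49.7, 36.4 and 45.7 RPM in YH250, against 59.1, 74.5 and 53.8 RPM in DMSO. Tfe3, a transcription factor of lysosomal genes, had the most positive difference of that list, at 13.0 ± 4.28 RPM in YH250 and 7.86 ± 2.77 RPM in DMSO. Grb10, an adaptor stabilized by TORC1, had the most negative one (-0.96 ± 0.96, SE).

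Amino acid and lysosomal input genes numbered 28 tested, 11 higher and 17 lower in mean (median -0.08). The Ragulator subunit genes Lamtor5 and Lamtor2 had the highest RPM of the list, Lamtor5 with 99.3 ± 13.6 RPM in YH250 and 91.1 ± 30.8 RPM in DMSO, Lamtor2 with 86.1 ± 25.03 RPM in YH250 and 80.5 ± 19.5 RPM in DMSO. Castor1, which encodes an arginine sensor, had the most negative difference (-1.13 ± 0.83, SE) with 0.1599 RPM in YH250 2, and the Rag GTPase gene Rraga the most positive (0.53 ± 0.46, SE). Outside the rule, 3 genes are named because their groups did not overlap. Slc38a9, the lysosomal arginine transporter, had 23.1, 15.2 and 26.0 RPM in YH250, against 32.6, 35.8 and 34.1 RPM in DMSO. Fnip1, a partner of folliculin, had 41.6, 36.1 and 43.5 RPM in YH250, against 54.9, 51.5 and 62.6 RPM in DMSO. Lamtor1, the Ragulator anchor, had 96.8, 77.2 and 76.5 RPM in YH250, against 63.9, 65.8 and 70.1 RPM in DMSO.

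PI3K and Akt input genes split 10 higher and 7 lower of 17 tested (median 0.04). The regulatory subunit gene Pik3r1 averaged 111 ± 18.3 RPM in YH250 and 111 ± 27.9 RPM in DMSO. The phosphatase gene Phlpp1 was lowest in log2 difference (-0.80 ± 0.54, SE), and the adaptor gene Irs2 highest (0.35 ± 0.58, SE). AMPK and stress genes split 6 higher and 4 lower of 10 (median 0.06). Prkag1, a regulatory subunit of AMPK, had 49.8, 57.7 and 40.9 RPM in YH250, against 36.3, 36.9 and 29.8 RPM in DMSO, without overlap. Cab39, a partner of the AMPK kinase LKB1, averaged 65.0 ± 22.7 RPM in YH250 and 79.5 ± 31.9 RPM in DMSO. The catalytic subunit gene Prkaa2 had the most positive difference (0.75 ± 0.62, SE) and the subunit gene Prkab2 the most negative (-0.42 ± 0.44, SE).

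In the list of other subunits and assembly factors 3 of 7 genes were higher and 4 lower in mean (median -0.06). Telo2 and Tti1, which assemble mTOR and related kinases, had the highest RPM of that list. Telo2 averaged 20.1 ± 3.05 RPM in YH250 and 21.1 ± 14.5 RPM in DMSO, and Tti1 16.7 ± 2.13 RPM in YH250 and 19.0 ± 9.99 RPM in DMSO.

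**Figure D5:**
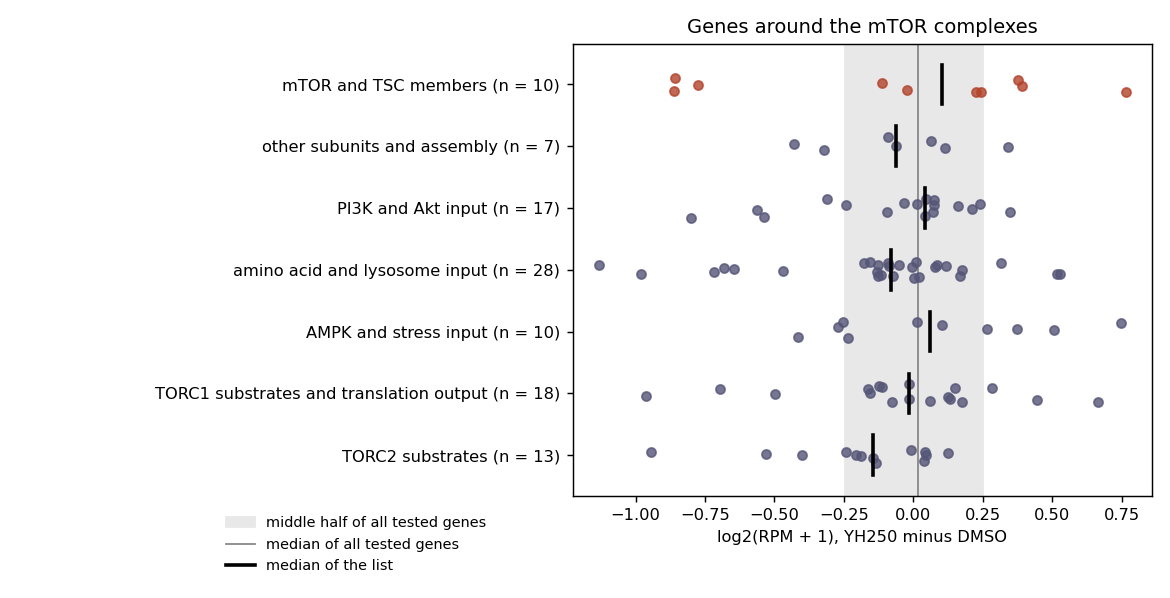
Difference in log2(RPM + 1), YH250 minus DMSO (x axis), of the 10 members and of the tested genes of 6 pathway lists, with each list's median as a black line. The grey band, from -0.25 to 0.25, runs between the lower and upper quartile of all tested genes; Rictor, Tsc1, Deptor and Rptor lie outside it by the widest margin of the 10.

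Between numbers 3 and 1, 1 of the 90 genes was called higher and 3 lower (limma, adjusted p under 0.05), beside 5.6% higher and 2.96% lower of all tested genes. Akt1 was lower in number 3 by -0.93 ± 0.22 (SE, adjusted p = 0.0344, limma) and Akt2 by -0.88 ± 0.23 (adjusted p = 0.0455, limma). Grb10 was lower by -2.92 ± 0.38 (adjusted p = 0.00172, limma), with 3.63 RPM in YH250 3 and 13.2 RPM in DMSO 3 and with 54.0 RPM in YH250 1 and 67.5 RPM in DMSO 1. Sgk3 was higher by 1.05 ± 0.21 (adjusted p = 0.0154, limma). Between numbers 3 and 2, 3 were called higher (Tbc1d7, Seh1l and Cab39) and 2 lower (Akt1 and Maf1), beside 3.67% higher and 2.64% lower of all tested genes. Between 2 and 1, 0 were called, beside 0.199% of all. Akt2, Tbc1d7, Seh1l and Maf1 were named after their values were seen.

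The 5 named genes whose log2(RPM + 1) followed Rictor most closely over the 6 libraries were Siah1a, Rnf181, Rfk, Chkb and Vps35l, with Pearson r of 0.981 to 0.989. Siah1a, a ubiquitin ligase gene with a close relative that may share its reads, averaged 26.3 ± 3.92 RPM in YH250 and 41.6 ± 2.00 RPM in DMSO. Chkb, a choline kinase gene, averaged 29.6 ± 5.21 RPM in YH250 and 44.9 ± 2.33 RPM in DMSO. Among the members, Tsc1 had the highest r with Rictor (0.82), followed by Deptor (0.63), while Rptor and Tsc2 had -0.77 each. These values share the libraries and their treatment and are given without a test. The 5 genes were picked for their r among the named tested genes, over only 6 libraries. High r values and lower YH250 means therefore follow from that choice.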

How the data were processed

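The authors deposited 1 table of normalized signal, covering 41128 Ensembl mouse genes in 6 libraries; no source used here states its unit. The lowest value of each column was 1 and most low values of the excess fell on small equal steps. Therefore 1 was subtracted and the rest read as RPM. One read was worth 0.0321 to 0.0455 RPM, and the values summed to 70.0% to 95.9% of the common total. Among values of at most 20 reads, only 61.3% to 68.6% came out whole (tolerance 0.1 read), so no count model was used. TopHat2 2.0.8, CASAVA 1.8.2, Partek and the build mm10 appear, with no roles, per the submitters' processing notes, which name no gene annotation.

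Symbols were matched for 40254 IDs, with positions and lengths from GENCODE M21 (GRCm38, also called mm10). Genes averaging at least 1 RPM (13597) were tested as log2(RPM + 1), pseudocount 1, which understates changes of low genes, with limma 3.58.1 in R 4.3.3 (eBayes with trend and robust, two-sided, Benjamini-Hochberg at 0.05). The code was tested on simulated data with the spread of the real genes. Intervals of depth cover counting error only.

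Libraries of the same number deviated together from their group means (r = 0.551, 0.256 and 0.696 for numbers 1, 2 and 3, all above 0.1). Unlike numbers also passed 0.1 for YH250 1 with DMSO 2 (0.144) and for YH250 2 with DMSO 1 (0.109). The numbers were used as a block in alternative fits. The main fit of treatment had no block, so its SEs do not use the pairing. What a number marks is not in the labels. Members and lists were chosen with earlier results of these data known; the within-library ratios, the 8 promoter motifs and the promoters printed were chosen after the values were seen. By rule the text names all members, Prr5 and Prr5l, the 2 genes with the highest RPM and the most positive and most negative gene of each pathway list, and the 5 most like Rictor; 1 gene that the rule names is not reported here. Alternatives were the replicate block, pseudocounts of 0.5 and 5, other minimum means, rescaling, quantile normalization, a length and GC correction and leaving out each library.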

Additional observations from a re-analysis of the deposited data

How the results depend on the processing

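In YH250 against DMSO, 0 genes passed with the replicate block, with the block plus the length and GC correction, and under each other alternative run, the smallest adjusted p (limma) being 0.66, with the block; leaving out each library gave 0 to 0. The Rictor difference kept its sign in 15 of 15 alternatives, between -1.005 (without YH250 3) and -0.67 (length and GC correction), and was -0.86 with the replicate block. Rptor, Mtor, Mlst8, Deptor, Tsc1 and Tsc2 also kept their sign in all 15; Akt1s1 kept it in 12, Mapkap1 in 13 and Rheb in 14. Between numbers 2 and 1 the genes called were 75 with a minimum mean of 5 RPM and 46 after quantile normalization, against 27. Leaving out each library gave 414 to 2944 genes between numbers 3 and 1, 252 to 3122 between 3 and 2, and 43 to 1743 between 2 and 1; the cause was not tested. With all 6 libraries, members called between numbers 3 and 1 ranged from 0 (length and GC correction) to 2 (minimum mean of 5 RPM). In the latter Rheb joined Akt1s1. Over all 30 pairs of a member and a number contrast, the sign held in every alternative for 14 and turned in at least 1 for 16. Rictor between numbers 3 and 1, never called, was -0.018 after quantile normalization, and leaving out each library gave -0.054 (without YH250 3) to 0.32 (without DMSO 3).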
